A study of Mus musculus with 8 samples.

Results

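The question addressed was whether the difference between 2 mouse strains, B6 and BALB, depends on which thymic cells are compared. It was put as a single contrast, the log2 difference of BALB over B6 in whole thymocytes minus the same difference in sorted double-positive (DP) thymocytes, which equals the whole-over-DP difference in BALB minus that in B6. All 8 libraries of the series enter it, 2 in each of 4 groups, and it was estimated for 11409 of the 23420 genes listed, those with enough counts. A positive value means that BALB was relatively higher in whole thymocytes than in DP thymocytes. The groups were DP thymocytes of B6, whole thymocytes of B6, DP thymocytes of BALB and whole thymocytes of BALB, all from wild-type thymus. Strain is read from the library names, and the labels give no substrain, age or sex. DP cells had been sorted as CD4+ CD8+ and CD69-negative with low to medium staining by H57, which binds the beta chain of the T cell receptor. Nothing in the labels ties the 2 libraries of a group to separate mice, and p-values therefore measure only the spread between these libraries, which may be technical.

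DP thymocytes are the stage at which the alpha chain of the T cell receptor is rearranged, before positive selection. They make up most of a thymus, so whole thymocytes hold such cells together with dividing precursors, selected single-positive cells and a few cells of other kinds. The contrast thus sets 1 sorted stage against a mixture that contains it. In bulk samples like these, fewer cells of a type and less RNA per cell cannot be told apart.

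Counts in genes ran from 2632083 to 5974684 per library. The sort was visible in the markers: S1pr1, the egress receptor of mature thymocytes, had 0 to 0.175 CPM (a gene's counts relative to the scaled total of its library) in the 4 DP libraries and 24.9 to 29.2 in the 4 whole ones. Rag1, which cuts receptor genes, was abundant in all 8, at 3183 to 10504 CPM. The 2 BALB DP libraries differed most from each other, with a standard deviation of 0.455 for the log2 difference between replicates over 9644 genes, against 0.240 to 0.342 in the other groups. The ribosomal precursor Rn45s took 3.14% of counts in BALB DP replicate 1, the lowest share, and at most 8.35% elsewhere. BALB whole replicate 1 had 12313 counts of Xist and 0 counts of Eif2s3y, Ddx3y, Kdm5d and Uty, which lie on the Y chromosome. All 7 other libraries had counts of these 4 genes and at most 203 of Xist. The fit had no term for sex, which the labels do not give.

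Most strain differences were shared by both populations in direction. BALB and B6 differed in 1482 genes in DP thymocytes (13.0% of those tested, 6.85% higher and 6.14% lower in BALB) and in 524 in whole thymocytes (4.59%, 1.98% higher and 2.61% lower), at a Benjamini-Hochberg adjusted p under 0.05 in edgeR's quasi-likelihood test. Of the 379 genes called in both, 377 had the same sign, and 2, Dst and Sidt1, had opposite signs. Of the 1103 genes called in DP cells alone, 885 had the same sign in whole thymocytes. The 145 genes called in whole thymocytes alone had the same sign in DP cells in 94 cases. The share with the same sign over all genes tested was not computed. Across the 11409 genes, which are not independent replicates, the 2 strain differences had a Pearson r of 0.589.

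The dependence on population itself was called for 14 genes, 0.123% of those tested. In 12 of them (0.105% of genes) the value was positive, and in 2 (0.0175%) it was negative. All 12 with a positive value were lower in BALB than in B6 DP thymocytes, and all 12 were called higher in whole than in DP thymocytes of BALB. Both differences are parts of the contrast, so choosing genes by a positive value favours these directions. Of all genes, which were not chosen this way, 10.6% were called higher in whole than in DP thymocytes of BALB. In whole thymocytes the same 12 genes ranged from a strain difference of -2.81 in Epsti1 to 1.16 in Sidt1 on the log2 scale. Among the 14 genes, 6 had strain differences called in DP and not in whole thymocytes, 5 were called in both with the same sign, 2 in both with opposite signs and 1 in whole thymocytes alone. Of all genes tested, 988 had a value beyond 2-fold either way, the 14 among them.

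**Figure D1:**
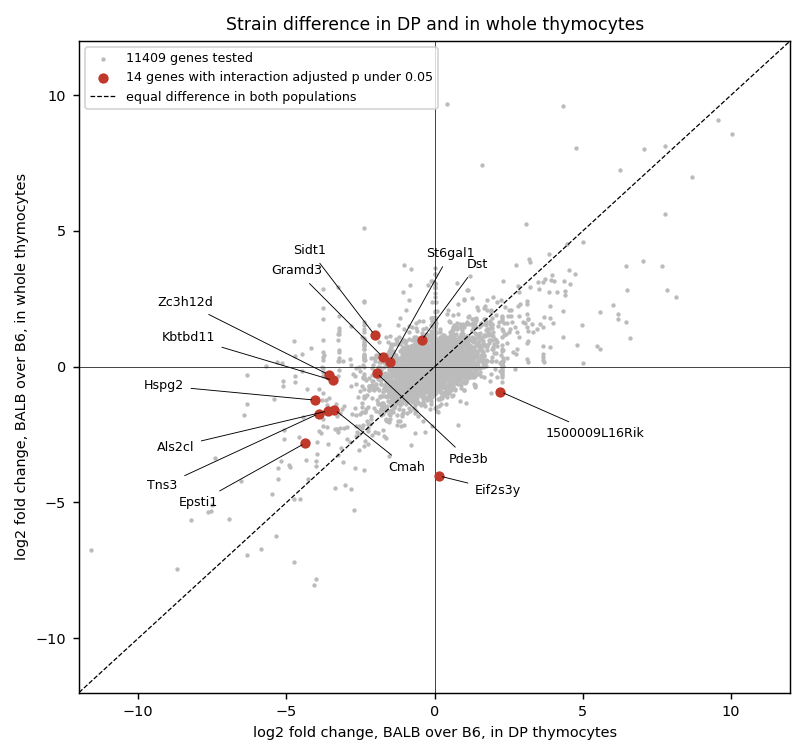
Each point is 1 of the 11409 genes tested, with the log2 fold change of BALB over B6 in DP thymocytes on the horizontal axis and in whole thymocytes on the vertical axis; the dashed line marks equal differences. The 14 genes in red are those whose 2 differences were called unequal: 12 lie above the line at negative DP values, and 1500009L16Rik and Eif2s3y lie below it.

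The number of calls rested on single libraries. Leaving out each library in turn gave 0 to 1311 called genes. Without B6 whole replicate 2 there was no call in edgeR, with 754 genes at an unadjusted p under 0.05, while DESeq2 called 8 genes and limma-voom 0. Without BALB DP replicate 1 there were 47 calls, 22 higher and 25 lower, and without BALB DP replicate 2 there were 1311, 384 higher and 927 lower. Both of these held all 14 genes. Without BALB whole replicate 1, the library with no Y-linked counts, 11 genes were called, 9 of them among the 14. Leaving out both BALB DP replicate 1 and BALB whole replicate 1, a choice made after seeing the data, gave 139 calls including all 14. A cause for these shifts was not tested. The sign of each of the 14 genes was the same in every alternative in which it was fitted.

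Cmah and St6gal1 act on sialic acid, the sugar that ends many cell surface glycans: Cmah makes the hydroxylated form of sialic acid, and St6gal1 attaches sialic acid to galactose. Cmah (chr13:24327404-24477377) had 187 and 232 CPM in the B6 DP libraries and 18.0 and 23.3 in the BALB DP libraries. In whole thymocytes it had 181 and 179 CPM in B6 and 63.0 and 57.4 in BALB. The strains were apart in both populations, by -3.38 ± 0.16 (log2, SE) in DP cells and -1.58 ± 0.14 in whole thymocytes. The interaction was 1.80 ± 0.21 (adjusted p = 0.00502). St6gal1 (chr16:23224740-23360350) had 46.5 and 41.6 CPM in B6 DP and 14.4 and 16.7 in BALB DP libraries. Its whole-thymocyte values, 93.0 and 88.8 CPM in B6 and 104 and 103 in BALB, were close to each other. The strain difference was -1.52 ± 0.15 in DP cells and 0.18 ± 0.12 in whole thymocytes, with an interaction of 1.71 ± 0.20 (adjusted p = 0.00502).

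Pde3b, a phosphodiesterase that breaks down cyclic AMP, gave the smallest p of all genes. This gene (chr7:114415281-114539251) had 86.3 and 83.9 CPM in B6 DP libraries and 21.4 and 22.5 in BALB DP libraries, about equal within each strain. In whole thymocytes it had 119 and 108 CPM in B6 and 96.6 and 97.1 in BALB. The difference of -1.96 ± 0.13 in DP cells stood against -0.23 ± 0.11 in whole thymocytes (not called, adjusted p = 0.381), and the interaction was 1.73 ± 0.17 (adjusted p = 0.00502). Als2cl, a relative of the Rab regulator alsin (chr9:110879870-110900530), had 124 and 138 CPM in B6 DP, 9.46 and 13.2 in BALB DP, 167 and 147 in B6 whole and 54.8 and 46.7 in BALB whole libraries. BALB was lower in both populations, by more in DP cells, and the interaction was 1.97 ± 0.23 (adjusted p = 0.00502). Exons of Als2cl overlap those of Tmie on the other strand, and the library kit does not keep the strand.

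Among genes of the cytoskeleton and matrix, Dst changed direction between the populations. Dst encodes dystonin, which links cytoskeletal filaments (chr1:33908225-34308661). It had 63.4 and 59.0 CPM in B6 DP and 45 and 44.6 in BALB DP libraries, so that BALB was the lower strain. In whole thymocytes BALB was the higher, with 187 and 193 CPM against 95.5 and 97.7 in B6. The strain differences were -0.45 ± 0.12 and 0.97 ± 0.11, both called, and the interaction was 1.42 ± 0.16 (adjusted p = 0.00502). Tns3, a tensin of focal adhesions (chr11:8431652-8664535), had 60.3 and 65.6 CPM in B6 DP, 4.73 and 3.11 in BALB DP, 58.7 and 53.5 in B6 whole and 19.6 and 14.2 in BALB whole libraries. Its interaction was 2.18 ± 0.31 (adjusted p = 0.0231). Hspg2, which encodes the basement membrane proteoglycan perlecan (chr4:137468769-137570630), had 52.1 and 52.8 CPM in B6 DP and 22.5 and 21.5 in B6 whole libraries. BALB libraries had 2.80 and 3.88 CPM in DP and 6.28 and 12.5 in whole thymocytes. In B6 it was higher in DP than in whole thymocytes, by a whole-over-DP difference of -1.25 ± 0.22, while in BALB this difference was 1.55 ± 0.36. The interaction was 2.80 ± 0.42 (adjusted p = 0.0276).

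Sidt1 was the other gene with opposite strain differences. It is a membrane protein of a family known for RNA uptake (chr16:44240180-44333196). Its levels were 13.5 and 17.1 CPM in B6 DP, 4.73 and 1.94 in BALB DP, 17.7 and 16.7 in B6 whole and 42.7 and 34.5 in BALB whole libraries. B6 was alike in both populations, at a whole-over-DP difference of 0.15 ± 0.25 (adjusted p = 0.774), and BALB was not, at 3.34 ± 0.29. The interaction was 3.19 ± 0.39 (adjusted p = 0.00574). Zc3h12d, of the Regnase family of RNA-binding proteins (chr10:7832470-7870396), showed low levels, with 9.73 and 10.7 CPM in B6 DP, 11.2 and 13.5 in B6 whole and 9.90 and 10.2 in BALB whole libraries. Only the BALB DP libraries stood apart, at 1.05 and 0.388 CPM, which are 7 counts in all. The interaction was 3.27 ± 0.50 (adjusted p = 0.0277).

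Epsti1, an interferon-inducible gene (chr14:77904239-78002657), had the largest strain difference of the 14 genes in DP cells, -4.37 ± 0.19. It had 173 and 164 CPM in B6 DP, 9.64 and 5.44 in BALB DP, 151 and 142 in B6 whole and 19.8 and 21.7 in BALB whole libraries. The interaction of 1.55 ± 0.25 lay just inside the threshold (adjusted p = 0.0486). Just outside it were Cnn3, at 1.42 ± 0.24 (adjusted p = 0.0516), and Ahnak, at 1.47 ± 0.25 (adjusted p = 0.0544). Kbtbd11, a Kelch-repeat protein (chr8:15011025-15033333), had 19.1 and 18.3 CPM in B6 DP, 1.40 and 2.33 in BALB DP, 62.0 and 65.3 in B6 whole and 45.6 and 43.9 in BALB whole libraries. On the log2 scale its interaction was 2.92 ± 0.32 (adjusted p = 0.00502), whereas on the CPM scale the strain difference was nearly the same in both populations, with a difference of differences of -2.01 CPM. The other 13 genes kept their sign on the CPM scale, Als2cl by 13.5 CPM, as did 92.8% of all genes tested. Gramd3, which carries a membrane-binding GRAM domain, had 38 and 48.4 CPM in B6 DP, 11.2 and 15.9 in BALB DP, 32.7 and 33.1 in B6 whole and 45.2 and 38.2 in BALB whole libraries. Its BALB DP libraries lay below the other 6, and the interaction was 2.08 ± 0.28 (adjusted p = 0.0147).

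**Figure D2:**
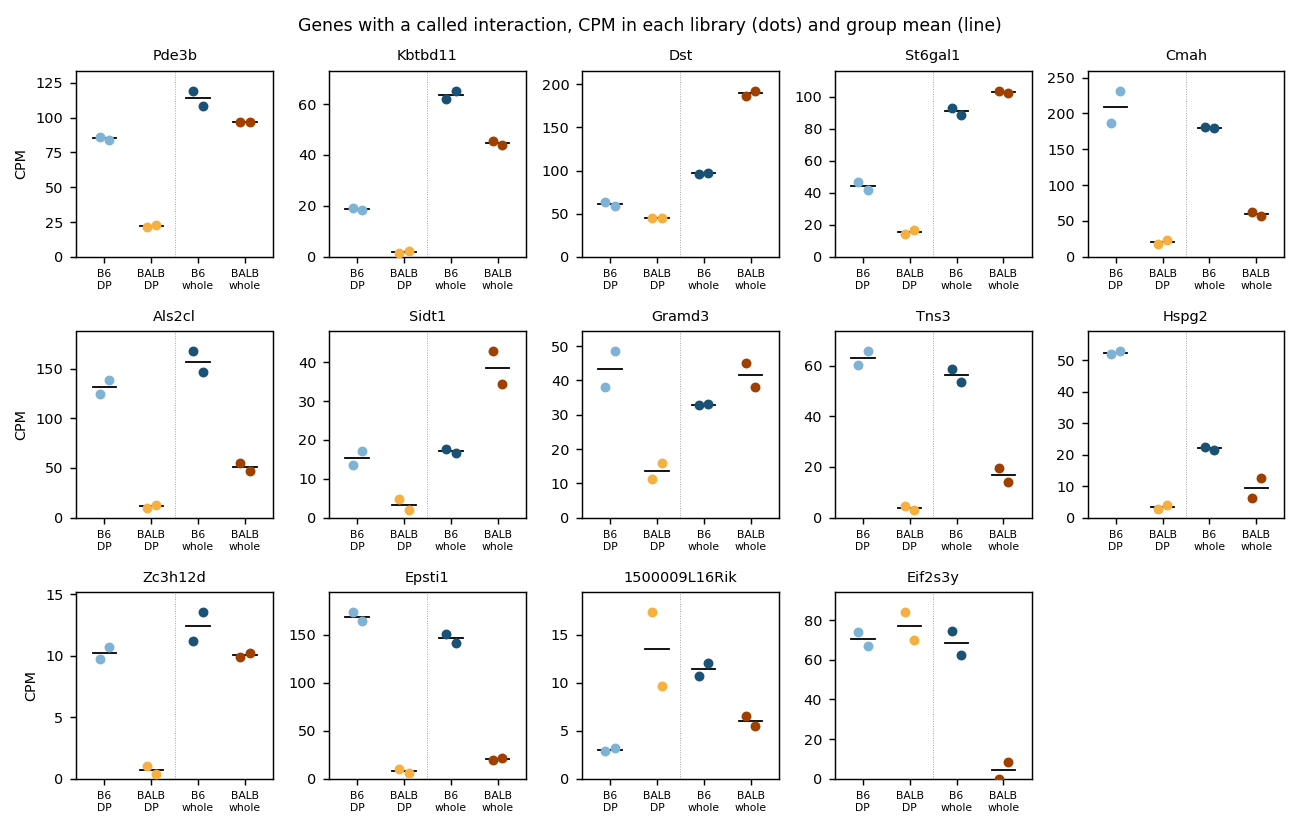
CPM of the 14 called genes on the vertical axes, with 1 dot per library and a line at the mean of each group on the horizontal axis. In the 12 genes of positive interaction the BALB DP libraries are the lowest of the 8; in 1500009L16Rik they lie above the B6 DP libraries, and in Eif2s3y the BALB whole libraries lie at 0 and 8.49.

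The 2 genes with negative values were of another kind. 1500009L16Rik, a gene without a named function (chr10:83722865-83762762), had 2.83 and 3.20 CPM in B6 DP, 17.3 and 9.71 in BALB DP, 10.7 and 12.1 in B6 whole and 6.52 and 5.49 in BALB whole libraries. BALB was higher in DP cells, by 2.22 ± 0.35, and the value of -0.92 ± 0.31 in whole thymocytes was not called. The interaction was -3.14 ± 0.47 (adjusted p = 0.0276). Eif2s3y, the Y-linked copy of a translation initiation factor subunit (chrY:1010543-1028847), had 62.6 to 84.1 CPM in the 6 libraries of the other 3 groups and 0 and 8.49 in BALB whole. The interaction was -4.16 ± 0.66 (adjusted p = 0.0408) and its adjusted p in DESeq2 was 0.938. Without BALB whole replicate 1 the value was -3.15 (adjusted p = 0.0100). BALB whole replicate 2 had 34 counts of Eif2s3y beside 725 of Ddx3y and 203 of Xist. The X-linked copy Eif2s3x, which is similar enough in sequence that reads may not be assigned with certainty, had 59.0 to 116 CPM and an interaction of -0.09 ± 0.28. In CPM, the other Y-linked genes did not follow Eif2s3y in that replicate: Ddx3y had 181 (113 to 206 in the other 3 groups), Kdm5d 96.4 (97.4 to 130.3) and Uty 71.4 (69.2 to 104). The interaction of Ddx3y was -0.75 ± 1.28 (adjusted p = 0.874). Eif2s3y was the only called gene on any of the 36 lists examined.

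The 14 calls held to different degrees. Pde3b, Kbtbd11, Dst, St6gal1, Cmah and Als2cl were called in 16 of 17 alternatives, the exception being the fit without B6 whole replicate 2, where each had an adjusted p of 0.0543. Sidt1 was called in 15 and Gramd3 in 13. Hspg2 and Tns3 were called in 11 each. Fewest were those of Epsti1, called in 7 of 17, Eif2s3y in 8 of 17, Zc3h12d in 8 of 16 and 1500009L16Rik in 9 of 16. DESeq2 also called 13 of the 14 genes and limma-voom 8.

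**Figure D3:**
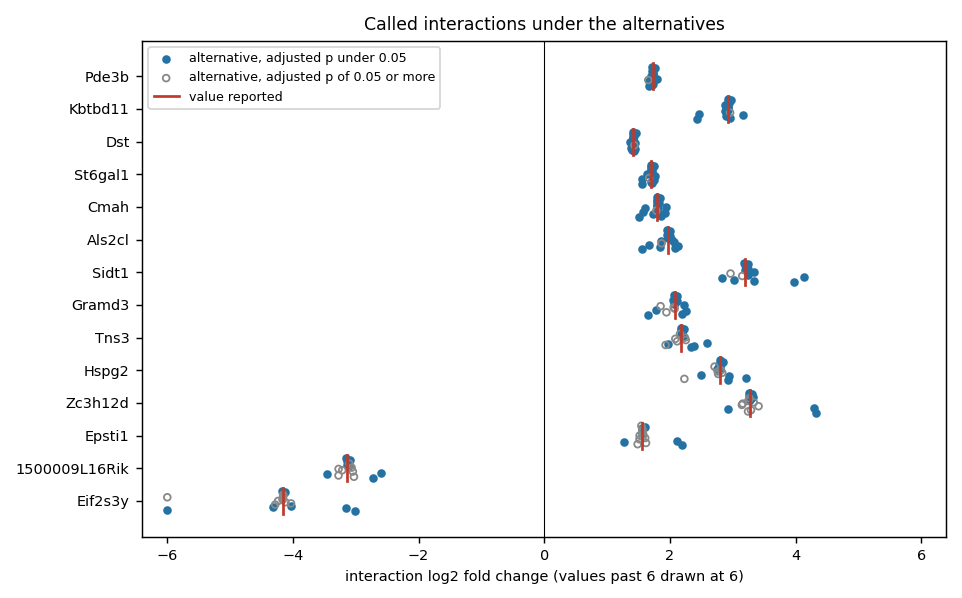
Interaction (log2 fold change, horizontal axis) of each of the 14 called genes under the alternatives, filled where the adjusted p stayed under 0.05 and open where it did not, with the reported value as a bar. All points of a gene lie on the same side of 0.

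Genes that define the DP stage had values near 0 in the contrast. Of 20 genes on a list of DP thymocyte genes, 11 had values above 0 and 9 below, none was called and the median was 0.01, beside 0.01 over all genes tested. Their strain difference was called lower in BALB for 10 of the 20 in DP cells (6.14% of all genes) and for 8 in whole thymocytes (2.61% of all genes). Rag1 had 10504 and 9864 CPM in B6 DP, 4811 and 4845 in BALB DP, 5372 and 5662 in B6 whole and 3538 and 3183 in BALB whole libraries. BALB was lower in both populations, by -1.08 ± 0.08 in DP and -0.72 ± 0.08 in whole thymocytes, without overlap. The interaction was 0.36 ± 0.11, with a 95% interval of 0.13 to 0.60 before adjustment and an adjusted p of 0.257. Cd4 (0.18 ± 0.13), Cd8a (0.16 ± 0.11) and Rag2 (0.15 ± 0.21) had intervals that included 0. For Arpp21, an RNA-binding protein typical of DP cells, the strain differences of -0.38 in DP and -0.39 in whole thymocytes were almost equal.

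Of the genes tied to receptor signalling, Cd5 was higher in BALB in both populations. It is an inhibitory receptor whose level follows T cell receptor signal strength, and it had 85.1 and 75.4 CPM in B6 DP, 135 and 159 in BALB DP, 161 and 159.6 in B6 whole and 243 and 253 in BALB whole libraries. The strain difference was 0.87 ± 0.12 in DP and 0.63 ± 0.11 in whole thymocytes, both called, and the interaction of -0.24 ± 0.16 was not called (adjusted p = 0.621). Cd69, the activation marker used in the sort, had an interaction of -0.25 ± 0.24. Both are on a list of 22 genes of receptor signal and positive selection, of which 9 were above 0 and 13 below, 1 was higher and 4 lower at an unadjusted p under 0.05 (beside 4.83% and 6.07% of all genes), and none was called. Cd2, an adhesion receptor of T cells, had 44.6 and 45.5 CPM in B6 DP, 142 and 134 in BALB DP, 159 and 146 in B6 whole and 248.5 and 298 in BALB whole libraries, with an interaction of -0.78 ± 0.17 (adjusted p = 0.158). Nr4a1, induced early after receptor signalling, had 9.10 and 9.37 CPM in B6 DP, 22.6 and 33.0 in BALB DP, 55.2 and 50.3 in B6 whole and 72.9 and 89.4 in BALB whole libraries, with -0.92 ± 0.29 (adjusted p = 0.291). In both genes the BALB libraries lay above the B6 libraries of the same population. On the CPM scale the difference of differences had the opposite sign in both genes, at 27.8 CPM for Cd2. Of 28 genes on a list of receptor signalling machinery, 15 were above 0 and 13 below, with none called. Jun, an AP-1 subunit, was far lower in whole than in DP thymocytes in both strains, at 109 to 172 CPM in the DP libraries and 5.25 to 10.2 in the whole ones. Its strain differences were not called in either population, and its interaction was -0.18 ± 0.37.

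Genes of dividing cells leaned to 1 side of the contrast, without a call on any single gene. Cells in S phase copy DNA with the MCM helicase and make replication-dependent histones, and cells in mitosis express cyclin B and the spindle regulator Cdc20. All 29 genes tested of a list of 30 cell cycle genes had values below 0, with a median of -0.61. At an unadjusted p under 0.05, 26 of the 29 were lower, beside 6.07% of all genes tested, but none was called by edgeR, DESeq2 or limma-voom after adjustment. The strain difference in DP cells had a median of 0.64 over the list, and 25 genes were called higher in BALB, beside 6.85% of all genes. In whole thymocytes its median was 0.02 and none of the 29 genes was called.

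Summed over the 30 genes, the cell cycle list had 9007 and 8497 CPM in B6 DP, 14548 and 12020 in BALB DP, 8160 and 8681 in B6 whole and 8809 and 8543 in BALB whole libraries. Both BALB DP libraries lay above the other 6, which overlapped between groups. Cdc20, which activates the anaphase-promoting complex, had 48.7 and 52.3 CPM in B6 DP, 84.4 and 87.3 in BALB DP, 56.2 and 58.1 in B6 whole and 56.8 and 50.4 in BALB whole libraries. The interaction was -0.85 ± 0.18 (adjusted p = 0.133). Mcm3, a helicase subunit, had 237 and 225 CPM in B6 DP, 373 and 356 in BALB DP, 282 and 299 in B6 whole and 251 and 302 in BALB whole libraries, with an interaction of -0.73 ± 0.15 (adjusted p = 0.133). Mcm6, of the same complex, had 241 and 232 CPM in B6 DP, 301 and 264 in BALB DP, 288 and 280.3 in B6 whole and 227 and 204 in BALB whole libraries, with -0.66 ± 0.15 (adjusted p = 0.168). Mki67, the proliferation marker, had 3518 and 3226 CPM in B6 DP, 5485 and 4426 in BALB DP, 2861 and 3105 in B6 whole and 3187 and 3061 in BALB whole libraries. Its difference of 0.56 ± 0.10 in DP cells was called, and its interaction of -0.49 ± 0.14 was not (adjusted p = 0.253).

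The direction of the cell cycle list did not rest on 1 library, whereas its calls did. Under every alternative 28 or more of its genes were below 0. Without BALB DP replicate 1 the median was -0.49 and 2 genes were called lower, beside 25 of all 11892 genes in that fit. Without BALB DP replicate 2 it was -0.78 and 25 were called lower, beside 927 of 11911. With both BALB DP replicate 1 and BALB whole replicate 1 left out it was -0.51 and 13 were called lower, beside 94 of 11762. With no filter on low counts 15 were called lower, beside 256 of 17434.

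Because the cell cycle list lay below 0, promoters are shown for its 3 genes with the smallest p and 1 annotated start. These promoters are the 250 bases before the start from RefSeq, build GRCm38.p6, read 5′ to 3′ on the gene's strand. Capitals mark CCAAT, the box bound by the factor NF-Y, and TTTGAA, the cell cycle homology element, on either strand (ATTGG and TTCAAA on the other). Cdc20 lies at chr4:118437344-118437593 on the minus strand, Mcm3 at chr1:20820313-20820562 on the minus strand and Mcm6 at chr1:128359706-128359955 on the minus strand.
Cdc20: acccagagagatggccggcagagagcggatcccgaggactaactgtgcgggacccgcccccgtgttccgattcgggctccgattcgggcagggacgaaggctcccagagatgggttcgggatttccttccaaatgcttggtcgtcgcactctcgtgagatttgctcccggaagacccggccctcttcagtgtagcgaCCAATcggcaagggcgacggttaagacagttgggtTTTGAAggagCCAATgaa
Mcm3: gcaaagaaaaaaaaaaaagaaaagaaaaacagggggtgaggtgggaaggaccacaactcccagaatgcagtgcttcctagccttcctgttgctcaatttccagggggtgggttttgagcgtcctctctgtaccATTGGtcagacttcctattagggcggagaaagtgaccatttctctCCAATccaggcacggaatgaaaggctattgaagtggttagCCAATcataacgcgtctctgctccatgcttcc
Mcm6: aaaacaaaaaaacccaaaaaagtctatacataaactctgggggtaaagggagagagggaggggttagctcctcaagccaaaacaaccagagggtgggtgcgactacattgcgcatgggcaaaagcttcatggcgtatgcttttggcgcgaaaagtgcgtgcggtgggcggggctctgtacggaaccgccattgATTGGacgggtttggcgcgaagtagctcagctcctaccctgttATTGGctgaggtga
The Cdc20 window holds 2 CCAAT boxes and 1 TTTGAA, that of Mcm3 holds 3 CCAAT boxes and that of Mcm6 holds 2. Of the 24 list genes matched in the promoter table, 19 (79.2%) had a CCAAT box in at least 1 window, against 37.5% of 27025 genes in the table. TTTGAA was in 6 of the 24 (25%), against 18.3% of genes. All 24 list genes had enough counts to be tested here, while the promoter table also holds genes that had not. The 2 sets are unlike in this, and the share among tested genes was not computed. The 2 motifs were searched separately and can overlap by an end letter. No other promoter element was searched. Among the 12 genes of positive interaction 9 were matched, and 4 of them had a CCAAT box (44.4%) while 0 of 9 had TTTGAA. A match describes these letters and no more.

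Replication-dependent histones went the same way. Of 61 genes tested on a list of 68, 56 were below 0 and 5 above, with a median of -0.86. At an unadjusted p under 0.05, 36 were lower and 0 higher, and none was called after adjustment by edgeR, DESeq2 or limma-voom. The share of all genes that were lower at that p was 6.07%. In DP cells 32 of the 61 were called higher in BALB, beside 6.85% of all genes. The summed level was 13146 and 12423 CPM in B6 DP, 24248 and 18454 in BALB DP, 10178 and 10893 in B6 whole and 11813 and 10756 in BALB whole libraries. BALB DP replicate 1 was the highest of the 8 and BALB DP replicate 2 the next. Hist1h4k had 69.7 and 66.0 CPM in B6 DP, 122 and 126 in BALB DP, 68.5 and 68.2 in B6 whole and 68.6 and 51.2 in BALB whole libraries, with an interaction of -1.06 ± 0.20 (adjusted p = 0.103). Hist1h2bj differed in kind: it had 74.0 to 86.2 CPM in all DP libraries and 72.7 and 76.4 in B6 whole, and was lower in BALB whole at 40.8 and 38.7 (interaction -1.0 ± 0.18, adjusted p = 0.0763). Histone genes are near-identical copies, so single members are uncertain. Their mRNAs mostly lack the poly(A) tail that the library kit selects, and the part of this in the values was not tested. Without BALB DP replicate 1 the histone median was -0.61 and 6 were called lower, and without BALB DP replicate 2 it was -0.94 with 37 called lower and 1 higher, beside the counts over all genes given for these fits. With no filter 34 were called lower, and with BALB DP replicate 1 and BALB whole replicate 1 left out 25 were.

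**Figure D4:**
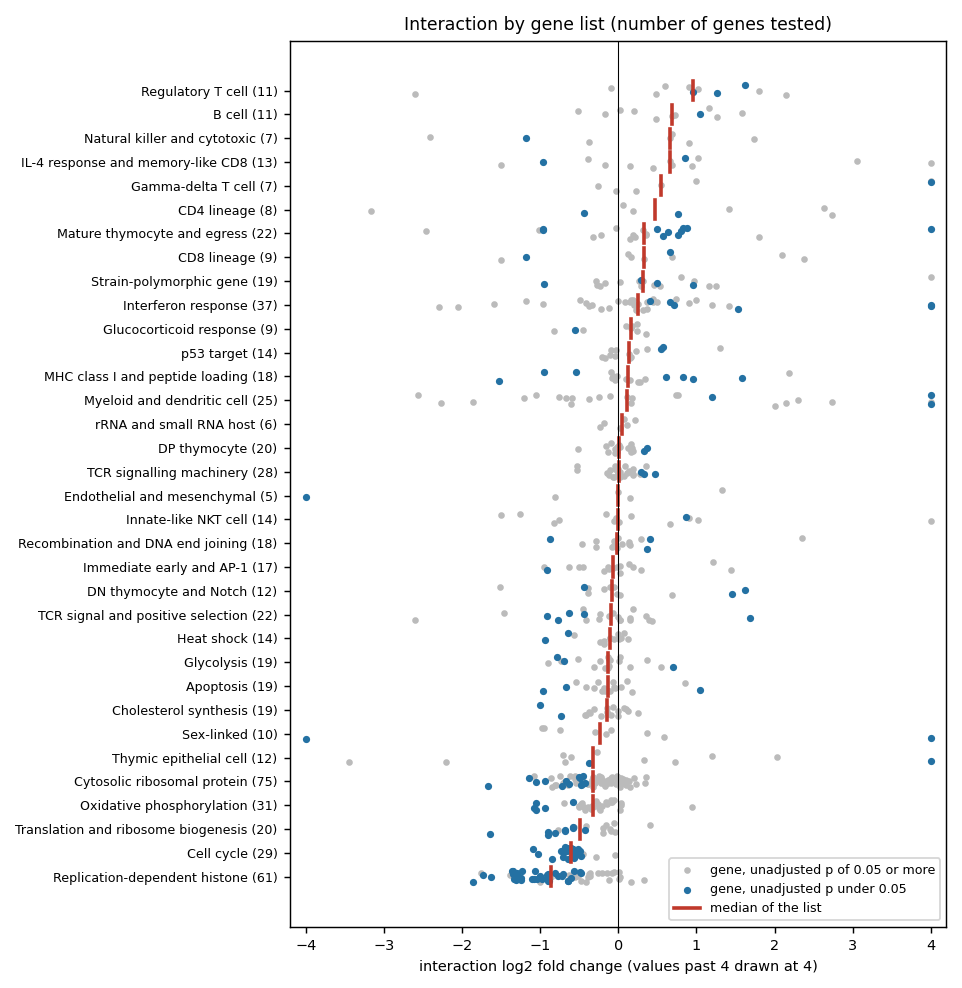
Interaction (log2 fold change, horizontal axis, drawn at 4 where beyond it) of each gene in the lists with 5 or more genes tested, blue where the unadjusted p was under 0.05, with the list's median in red. Histone and cell cycle genes lie almost wholly below 0, with medians of -0.86 and -0.61, and the DP thymocyte list centres at 0.01.

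Housekeeping lists of growth leaned the same way by less, and by how much varied with the BALB DP libraries. For ribosome biogenesis 19 of 20 genes were below 0 (median -0.50), for oxidative phosphorylation 27 of 31 (-0.32) and for cytosolic ribosomal proteins 62 of 75 (-0.32), with none called. At an unadjusted p under 0.05, 9, 5 and 13 of their genes were lower, beside 6.07% of all genes. Without BALB DP replicate 1 the medians were -0.20, -0.19 and -0.17, none was called, and 15 of 20, 22 of 31 and 57 of 75 were below 0. Without BALB DP replicate 2 the medians were -0.61, -0.40 and -0.46, with 10, 9 and 26 genes called lower, beside 927 of all 11911. With no filter 5, 4 and 6 were called lower, beside 256 of all 17434. Ncl, the nucleolar protein nucleolin, had 3474 CPM in BALB DP replicate 1 and 1545 in replicate 2, beside 1359.5 and 1407 in B6 DP and 1734 to 1929 in the whole libraries. Cox6c, a subunit of cytochrome c oxidase, had 102 CPM in BALB DP replicate 1 and 43.5 in replicate 2, beside 29.0 to 38.6 in the other 6. For both genes BALB DP replicate 2 lay much nearer to B6 DP than to its own replicate. In others the BALB DP libraries were close: the ribosomal protein gene Rpl3 had 202 and 211 CPM in BALB DP and 170.1 and 166 in B6 DP, and the nucleolar gene Nolc1 had 128 and 108 in BALB DP and 106 and 95.1 in B6 DP. All 4 genes were chosen after their values were seen.

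**Figure D5:**
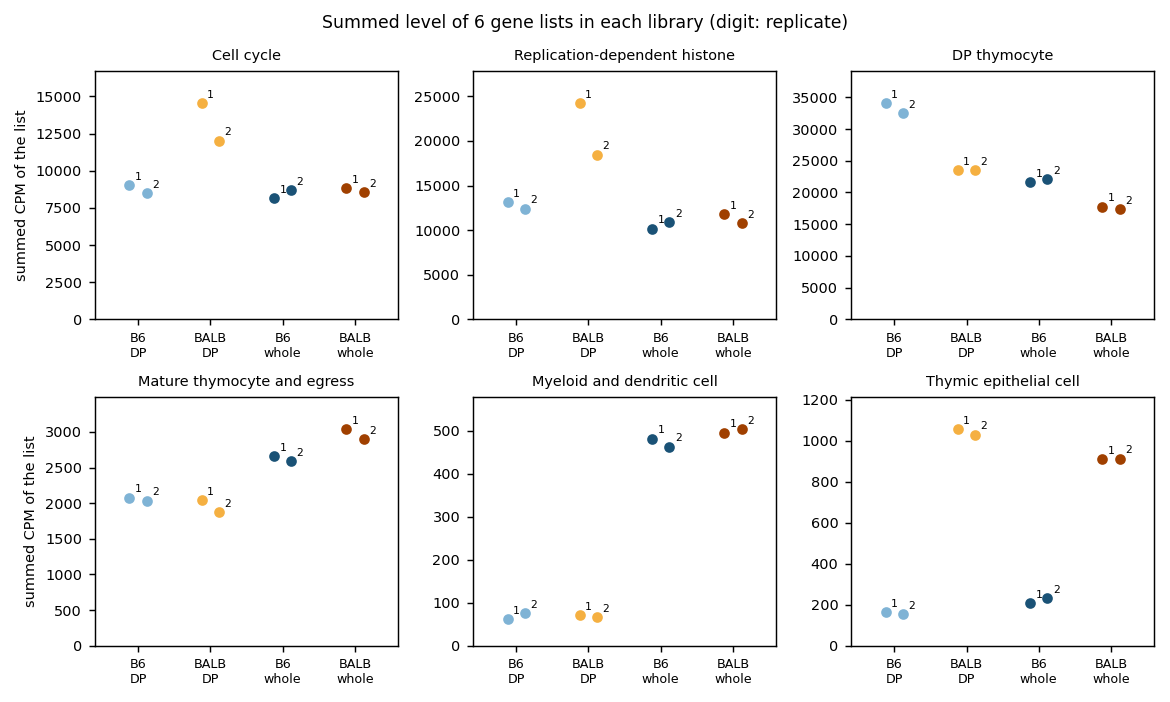
Summed CPM (vertical axis, from 0) of 6 gene lists in each library, with the replicate number beside each dot. The cell cycle and histone sums are highest in both BALB DP libraries, and the thymic epithelial list follows the strain in both populations through Ctsl.

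Lists of mature thymocytes leaned towards positive values. Of 22 genes on the mature thymocyte and egress list, 15 were above 0 and 7 below, 8 were higher at an unadjusted p under 0.05 and 2 lower, and none was called by edgeR, DESeq2 or limma-voom. The share of all genes that were higher at that p was 4.83%. Over the 21 genes with counts in every group the median was 0.35. The median of all 22, 0.33, was 0.51 without BALB DP replicate 1 and 0.59 with BALB DP replicate 1 and BALB whole replicate 1 left out. With no filter 1 was called in each direction, beside 108 higher and 256 lower of all 17434 genes. The median was 0.22 without BALB DP replicate 2 and 0.27 without B6 whole replicate 2. It was 0.35 without B6 DP replicate 2 and 0.26 without BALB whole replicate 1. In each of these last fits, fewer than 8 genes were higher at that p. The summed level was 2077 and 2036 CPM in B6 DP, 2046 and 1874 in BALB DP, 2659 and 2587 in B6 whole and 3037 and 2896 in BALB whole libraries. Whole libraries lay above DP libraries in both strains, and BALB whole above B6 whole. Foxo1, a transcription factor of quiescent T cells, had 86.0 and 74.3 CPM in B6 DP, 48.5 and 53.2 in BALB DP, 91.0 and 77.6 in B6 whole and 83.1 and 83.4 in BALB whole libraries. Its interaction was 0.64 ± 0.19 (adjusted p = 0.255). Bcl2, the survival factor, went the other way, with 14.1 and 14.9 CPM in B6 DP, 31.7 and 31.8 in BALB DP, 102 and 89.7 in B6 whole and 111 and 104 in BALB whole libraries, and an interaction of -0.97 ± 0.20 (adjusted p = 0.124). The part of these mature cells in the 12 positive genes was not tested.

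Of 37 genes of the interferon response 26 were above 0, as were 5817 of all 11409 genes. At an unadjusted p under 0.05, 6 were higher and 0 lower, beside 4.83% and 6.07% of all genes, and none was called by edgeR, DESeq2 or limma-voom. The median of 0.25 was 0.14 without BALB whole replicate 2, and 3 genes were higher at that p without B6 DP replicate 1. Over the 33 with counts in every group the median was 0.23. Igtp, an interferon-induced GTPase, had 71.9 and 71.8 CPM in B6 DP, 34.7 and 34.2 in BALB DP, 69.7 and 77.4 in B6 whole and 57.5 and 54.7 in BALB whole libraries, with an interaction of 0.67 ± 0.18 (adjusted p = 0.219). Irf9, part of the interferon-activated factor, had 39.9 and 30.6 CPM in B6 DP, 22.1 and 21.4 in BALB DP and 44.0 to 48.2 in whole libraries, with 0.71 ± 0.24 (adjusted p = 0.302).

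Some strain differences were called in whole thymocytes for genes that had few or no counts in DP libraries. Eomes, which encodes a T-box factor found in memory-like CD8 cells, had 31.9 and 29.5 CPM in BALB whole libraries, 1.75 and 0 in B6 whole, and 0 to 0.229 in the 4 DP libraries. Zbtb16, which encodes the innate-like T cell factor PLZF, had 37.0 and 22.5 CPM in BALB whole, 8.0 and 4.11 in B6 whole, and 0 to 0.350 in DP libraries. Il2rb, a receptor chain for interleukin 2 and 15, had 43.5 and 46.4 CPM in BALB whole, 24.7 and 19.6 in B6 whole and 0 in all DP libraries. With DP groups at or near 0 counts, the contrast holds no usable fold for these 3 genes, and the adjusted p of Eomes was 0.473. Their strain difference in whole thymocytes was called for Eomes (adjusted p = 0.000177), Zbtb16 (0.00316) and Il2rb (0.013). Markers of such cells did not all go this way. Ccl5, a memory-like CD8 marker at low levels, had 3.75 and 2.42 CPM in B6 whole and 0.966 and 3.25 in BALB whole libraries, which overlapped. Cxcr3, another such marker at low levels, was higher in BALB, with 0 and 0.968 CPM in B6 whole and 4.35 and 4.24 in BALB whole libraries. Its strain difference in whole thymocytes was not called (adjusted p = 0.0553). Of 14 innate-like NKT genes tested, 2 were called higher and 3 lower in BALB whole thymocytes, beside 1.98% and 2.61% of all genes. Of 13 genes of memory-like CD8 cells and the interleukin 4 response, 3 were called higher and 0 lower. H2-K1, a class I antigen-presenting molecule, had 14.1 and 15.1 CPM in B6 DP and 12.1 and 12.4 in BALB DP, against 179.7 and 165 in B6 whole and 82.6 and 65.7 in BALB whole libraries. Its strain difference was called in whole thymocytes alone, at -1.22 ± 0.13, and the interaction of -0.95 ± 0.24 was not called (adjusted p = 0.194). Reads of both strains were aligned to a B6 genome, and the part of this in the H2-K1 values was not tested.

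Il2ra, the interleukin 2 receptor chain of early thymocytes and regulatory T cells, had 10.4 and 10.7 CPM in B6 DP, 2.10 and 1.16 in BALB DP, 77.0 and 55.4 in B6 whole and 35.5 and 35.0 in BALB whole libraries. BALB was lower in both, and the interaction of 1.63 ± 0.41 was not called (adjusted p = 0.197). Lists of other cells differed by population, by strain or by both. The myeloid list summed to 60.9 to 75.6 CPM in the DP libraries and 463 to 503 in the whole ones. Neutrophil and mast cell genes summed to 149 CPM in BALB whole replicate 2 and to 26.3 or less elsewhere. The B cell list summed to 89.8 to 117 CPM in B6 libraries, 32.4 and 38 in BALB DP and 69.8 and 48.7 in BALB whole libraries. The thymic epithelial list summed to 910 to 1056 CPM in BALB and 153 to 232 in B6, mostly through the protease gene Ctsl, which had 675 to 962 CPM in BALB and 73.7 to 90.7 in B6. Prss16, a protease of cortical epithelium, had 44.4 and 45.7 CPM in BALB whole, 9.0 and 15.5 in B6 whole and 0 to 0.457 in DP libraries. The haemoglobin gene Hba-a1 was at 0 in all 8 libraries. The part of such cells in the called interactions was not tested.

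Strain differences of the on-or-off kind were seen in both populations. There were 284 genes called in both with the same sign and an interaction adjusted p above 0.5. Trim12a, of the TRIM family, had 104 to 121 CPM in the B6 libraries and 0 to 0.999 in the BALB libraries of either population. Gbp1, an interferon-induced GTPase, had 11.3 to 21.5 CPM in BALB and 0 to 0.250 in B6. Ugt8a, which makes a myelin lipid, had 15 to 27.6 CPM in BALB and 0 in B6, and Sycp1, a meiotic gene, had 6.13 to 9.90 CPM in BALB and 0 in B6. In each of these 4 genes the B6 and BALB libraries did not overlap in either population, a separation that picking the largest differences made likely. Slc15a2, a peptide transporter, had 132 and 63.3 CPM in B6 DP, 41.7 and 18.6 in B6 whole and 0 to 0.483 in BALB libraries. For such genes a log2 difference of differences is not defined by the data, since 1 strain had hardly a count. The part of the B6 reference genome in low BALB counts, as of Trim12a and Slc15a2, was not tested. Nnt, which is known to be deleted in some B6 substrains, had 144 and 136 CPM in B6 DP libraries and an interaction of 0.02 ± 0.17.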

How the data were processed

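RNA of whole and sorted DP thymocytes of B6 and BALB mice was measured in 8 libraries, built with Illumina's TruSeq v2 kit for RNA, per the labels. The submitters' processing notes name HISAT2 2.2.0 for alignment, mm10 (GRCm38, a B6 genome), HTSeq and DESeq2 1.42.1. Which HTSeq version, settings and gene annotation were used is not given in the sources used here. Values are raw counts, whole numbers for each gene symbol, taken as the authors deposited them. HTSeq's lines for reads outside genes were left out of library sizes. Positions are those of GENCODE M21 or RefSeq on GRCm38, in which 23303 of 23420 symbols were matched.

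The analysis used edgeR 4.0.16 in R 4.3.3. A filter on low counts (filterByExpr, 4 groups) left 11409 genes, while 6025 with a count were not tested, and TMM factors scaled the libraries. A quasi-likelihood model with 1 coefficient per group was fitted over all 8 libraries, with a common biological coefficient of variation of 0.114. A call is a Benjamini-Hochberg adjusted p under 0.05 over all genes tested. The value after ± is the standard error from this fit, CPM are scaled by the same factors, and lists were described by counts and medians only. The code was tested on simulated counts. Alternatives used DESeq2 1.42.0, limma-voom (limma 3.58.1), robust shrinkage, other scalings and filters, a replicate block and each library left out.

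The question, the lists and the rule for naming genes were chosen with earlier results of these data known. The rule named the called genes with a mean of at least 5 CPM in the highest group (up to 15 in each direction), up to 6 genes in each class of strain difference, and a set of genes of general interest. Members of lists and cell type markers named beyond these were chosen after their values were seen, as were Cnn3, Ahnak and Eif2s3x.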

Additional observations from a re-analysis of the deposited data

Results flagged for a closer look

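Each of the 14 called genes is listed here because its strain difference was found unequal in the 2 populations by the test of the difference itself. The interaction (log2, whole minus DP) was 1.73 for Pde3b, 2.92 for Kbtbd11, 1.42 for Dst, 1.71 for St6gal1, 1.80 for Cmah, 1.97 for Als2cl and 3.19 for Sidt1. It was 2.08 for Gramd3, 2.18 for Tns3, 2.80 for Hspg2, 3.27 for Zc3h12d and 1.55 for Epsti1. It was -3.14 for 1500009L16Rik and -4.16 for Eif2s3y. DESeq2 did not call Eif2s3y (adjusted p = 0.938), and BALB whole replicate 1 had 0 counts of this Y-linked gene. The groups hold 2 libraries each, too few to look for a single library far from the rest of its group.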

How the results depend on the processing

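The count of called interactions, 14, was 364 with no filter on low counts (108 higher, 256 lower), 8 with limma-voom and 23 with robust shrinkage. It was 139 without BALB DP replicate 1 and BALB whole replicate 1 together, an alternative added after seeing the data. With each library left out in turn it ranged from 0 to 1311. With a replicate block it was 11, all among the 14. The strain difference in DP thymocytes, 1482 genes, was 953 with DESeq2's Wald test, ranged from 509 to 3493 with each library left out and was 1321 with a replicate block. That in whole thymocytes, 524 genes, was 839 with no filter, 325 with a strict filter, 334 with DESeq2's Wald test and 1046 without the 2 BALB replicates. It ranged from 214 to 966 with each library left out and was 465 with a replicate block. The causes of these shifts were not tested. Deviations of same-numbered libraries correlated at -0.042 to 0.081 between groups. With 2 libraries in a group, this cannot tell whether replicate numbers mark a shared animal or day. Over the 38 named genes and all alternatives, 565 values kept their side of the threshold, 58 lost a call, 15 gained one and 0 reversed a called direction. Depth limits Zc3h12d most, with 7 counts in BALB DP libraries, and genes at 0 in a group have no usable fold.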
